A study of Mus musculus with 22 samples.

Results

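The phospholipases A2 described here are 6 genes of the mouse colon epithelium, Pla2g2a, Pla2g5 and Pla2g10 for secreted enzymes, Pla2g4a and Pla2g4c for cytosolic ones, and Pla2g6 for a calcium-independent enzyme. Their members are all probes that the platform annotation maps to these symbols, 7 of the 45281 probes on the array and 6 of its 19057 named genes. The 22 bead arrays came from epithelial cells of male BALB/c mice aged 6 to 10 weeks, shaken out of the opened colon in 20 mM EDTA for 25 min with no sorting step named. KO_antibiotic (6 arrays) and KO_untreated (6 arrays) were mice without the polymeric immunoglobulin receptor (labelled pIgR-KO, shortened to KO) with and without 17 days of antibiotics, and WT_antibiotic (5 arrays) and WT_untreated (5 arrays) were wild-type (WT) mice handled likewise. The receptor carries secretory antibodies through the epithelium into the gut, and the groups ask what its loss changes with and without antibiotics. The sources used here do not give which antibiotics were used, how the knockout was made or whether an array held 1 mouse or several.

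Phospholipases A2 cut the fatty acid from the middle position of a membrane phospholipid, which leaves a lysophospholipid. Secreted members act outside the cell and need calcium, and the group IIA enzyme, the product of Pla2g2a, kills bacteria by breaking down their membranes and is a known product of Paneth cells in the mouse small intestine. The gene is disrupted in several laboratory strains and intact in BALB/c. Cytosolic members act on the cell's own membranes, and the fatty acid they release, when it is arachidonic acid, feeds prostaglandin and leukotriene synthesis.

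The 6 genes were chosen by family membership with earlier results of these arrays known, among them the higher Pla2g2a level of untreated KO mice. The comparisons of KO with WT mice are therefore given for them as levels and differences without a test. The antibiotic comparisons and the interaction were tested in the fit over all probes, but the values behind the choice are not stated in full, so these adjusted p-values are no independent evidence about the genes.

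Between 15975 and 18388 probes were detected per array, and replicates of a group correlated at 0.94 to 0.99 over all probes. Pigr, the gene disrupted in KO mice, lay at log2 levels of 8.74 to 10.73 on the KO arrays and 11.32 to 12.50 on the WT arrays. All 8 markers of colon epithelium were detected on every array, at mean levels of 11.06 to 11.64 per array, and 0 of them were called in any comparison. In the KO_untreated group 5 of 6 array descriptions end in a suffix that the sources used here do not explain, and values with the remaining array alone stand beside each member's call that they end. No array of another group carries it, so the suffix cannot be separated from that group in any comparison. Apart from the suffix, KO_untreated 1 and 2 bear the same number, and they correlated at 0.96, the lowest value in their group. A KO_untreated and a WT_untreated array also share a number. Whether KO_untreated 1 and 2 came from the same mouse was not tested, and n = 6 treats them as independent.

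Of the 7 probes, 5 passed the filter on low signals, which kept probes detected (detection p-value under 0.05) on 5 or more of the 22 arrays, and they represent 5 of the 6 genes. The probes of Pla2g2a (ILMN_2727163) and Pla2g10 (ILMN_2609753) were detected on all 22 arrays, that of Pla2g6 (ILMN_2720429) on 20 and that of Pla2g5 (ILMN_2682574) on 15. Pla2g4c had 2 probes, of which ILMN_3160874 was detected on 10 arrays, all of them untreated, and ILMN_1250497 on 0 of 22. The probe of Pla2g4a (ILMN_2606027), the gene of the enzyme that releases arachidonic acid in many cell types, was also detected on 0 of 22 arrays. The first Pla2g4c probe thus passed the filter only through the untreated arrays, where it was high, so a difference between the treatments was built into its passing.

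The reference used for sequences is RefSeq with build GRCm38.p6, which holds promoter windows for 5 of the 6 genes, 8 windows in all. Each runs from 250 bases before an annotated transcription start to 50 bases after it. The 2 windows of Pla2g4c are shown because this gene was detected only without antibiotics, and that of Pla2g10 because its level hardly differed between the groups. The capital letter marks the annotated start, and each sequence is written 5′ to 3′ on the strand of its gene. The Pla2g4c windows lie at chr7:13325417-13325716 and chr7:13329072-13329371 on the plus strand, and the Pla2g10 window at chr16:13730435-13730734 on the minus strand.
Pla2g4c, first start: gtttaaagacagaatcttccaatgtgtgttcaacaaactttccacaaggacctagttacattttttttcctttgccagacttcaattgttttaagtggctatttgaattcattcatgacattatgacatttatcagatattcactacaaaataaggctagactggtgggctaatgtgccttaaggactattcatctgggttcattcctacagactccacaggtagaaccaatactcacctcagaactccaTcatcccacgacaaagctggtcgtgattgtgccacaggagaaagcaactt
Pla2g4c, second start: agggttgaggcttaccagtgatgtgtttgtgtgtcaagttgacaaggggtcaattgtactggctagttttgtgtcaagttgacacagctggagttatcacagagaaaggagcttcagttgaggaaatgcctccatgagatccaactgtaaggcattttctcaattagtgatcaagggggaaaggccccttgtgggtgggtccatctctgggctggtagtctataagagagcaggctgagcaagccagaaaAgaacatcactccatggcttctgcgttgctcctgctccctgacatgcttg
Pla2g10: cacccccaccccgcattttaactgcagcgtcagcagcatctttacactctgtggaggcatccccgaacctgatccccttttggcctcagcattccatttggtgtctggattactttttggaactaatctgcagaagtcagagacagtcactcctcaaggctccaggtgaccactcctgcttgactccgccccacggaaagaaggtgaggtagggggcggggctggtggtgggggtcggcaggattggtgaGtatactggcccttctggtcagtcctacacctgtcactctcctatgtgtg
The first Pla2g4c window has a GC content of 39.3% with 2 CpG dinucleotides, the second 48.7% with 1, and the Pla2g10 window 55.7% with 7. The median of all 32851 windows of that length was 52.7% and 7 CpG, so both Pla2g4c windows are poorer in GC and CpG than the median window. Each window was searched on both strands for TATAAA, the core of a TATA box (in 13.6% of all windows), TTCNNNGAA, the core bound by STAT factors (8.3%), and TGACGTCA, the cyclic AMP response element (1.79%). Of the 8 windows only 1, a window of Pla2g4a, held any of these letters, a TATAAA. The 3 windows shown held none, which says only that these letters do not occur in them.

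Pla2g2a fell under antibiotics in both genotypes. Its log2 levels were 8.98, 8.94, 8.32, 8.54, 9.37 and 7.42 in KO_antibiotic, against 13.10, 13.51, 13.33, 13.10, 13.44 and 13.70 in KO_untreated. All 6 treated KO arrays lay far below all 6 untreated ones. In WT mice they were 6.20, 6.94, 6.66, 6.40 and 7.28 in WT_antibiotic, against 9.83, 9.41, 13.47, 11.86 and 9.71 in WT_untreated. Here too no treated array reached an untreated one, and the untreated arrays spread widely, with WT_untreated 3 within the levels of untreated KO mice, WT_untreated 4 below them and the other 3 lower still.

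The mean level of Pla2g2a was 8.59 ± 0.68 in KO_antibiotic and 13.36 ± 0.24 in KO_untreated (SD, n = 6 each), a difference of -4.77 on the log2 scale (SE 0.48, 95% confidence interval -5.75 to -3.79), or 27.3-fold lower (limma adjusted p = 9.82e-07). It was 6.70 ± 0.43 in WT_antibiotic and 10.85 ± 1.75 in WT_untreated (SD, n = 5 each), a difference of -4.16 (SE 0.52, interval -5.24 to -3.08), or 17.8-fold lower (adjusted p = 7.88e-05). Among the probes detected in both groups compared, 19201 in KO and 19221 in WT mice, this fall ranked 2 from the lowest difference in each genotype. The falls in the 2 genotypes differed by -0.61 (SE 0.71, interval -2.07 to 0.85, interaction adjusted p = 0.785), so a difference between them was not resolved, and the interval leaves room for a fall in KO mice more than 2 log2 units larger. Every SE and interval here rests on 1 spread shared by the 4 groups, whose SDs ran from 0.24 to 1.75. Those that involve WT_untreated are therefore narrower than its own arrays would give. In these bulk samples, fewer cells of a type and less RNA per cell cannot be told apart.

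Pla2g2a was also higher in KO than in WT mice under either treatment, given here as a description. The KO mean was 2.51 above the WT mean without antibiotics (SE 0.50 from the shared spread, 5.70-fold), with 6 of 6 KO_untreated arrays above the WT_untreated mean and 2 of 6 above every WT_untreated array. With antibiotics it was 1.90 above (SE 0.50, 3.73-fold), and all 6 KO_antibiotic arrays lay above all 5 WT_antibiotic arrays, as for 0.16% of tested probes. Among probes detected in both groups these differences ranked 12 from the highest of 19179 and 6 from the highest of 19332. These ranks only describe, since the genes were chosen with earlier results of these arrays known. The 4 groups therefore ran, by mean level, from WT_antibiotic over KO_antibiotic and WT_untreated to KO_untreated. Of the neighbours in that order, KO_antibiotic and WT_antibiotic did not overlap, with a lowest KO level of 7.42 and a highest WT level of 7.28, and neither did KO_antibiotic and WT_untreated, with 9.37 as the highest and 9.41 as the lowest level. KO_untreated and WT_untreated overlapped.

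**Figure D1:**
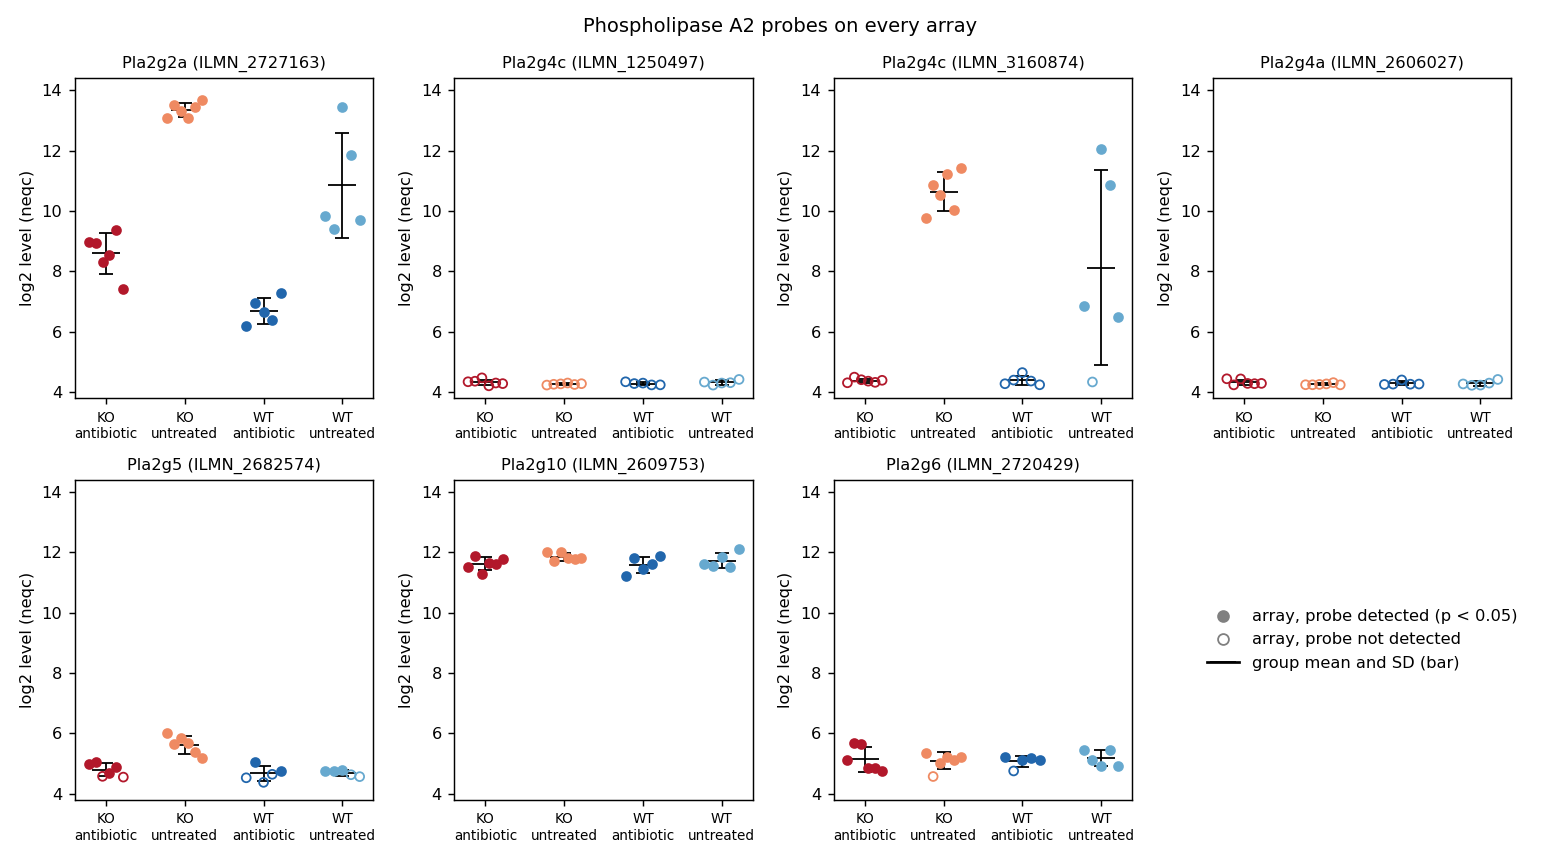
Log2 level (vertical axis, after neqc) of the 7 phospholipase A2 probes on every array in the 4 groups (horizontal axis), filled where the probe was detected and open where not, with the group mean and SD. Pla2g2a and 1 Pla2g4c probe are high on untreated arrays and low on antibiotic arrays, Pla2g5 is highest in KO_untreated, and the other probes vary by little more than 1 log2 unit or less.

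Pla2g4c encodes a membrane-bound cytosolic phospholipase A2 that works without calcium, as known from the human enzyme. On ILMN_3160874 its levels were 4.31, 4.49, 4.41, 4.36, 4.32 and 4.39 in KO_antibiotic, none of them detected, against 9.78, 10.85, 10.54, 11.22, 10.03 and 11.44 in KO_untreated. In WT mice they were 4.27, 4.39, 4.64, 4.36 and 4.24 in WT_antibiotic, again undetected, against 6.86, 4.33, 12.07, 10.86 and 6.49 in WT_untreated, where only the array at 4.33 was undetected. The probe was thus at the background on all 11 antibiotic arrays and spanned nearly the whole range of the gene among the 5 WT_untreated arrays alone.

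Against the lowest signal of a detected probe on each array, which lay between 4.66 and 4.89, Pla2g4c was at least 59.1-fold lower in KO_antibiotic than in KO_untreated, whose measured means were 4.38 ± 0.07 and 10.64 ± 0.65 (SD, n = 6 each). The fitted difference was -6.26 (SE 0.79, adjusted p = 1.11e-05). Since the probe passed the filter only through untreated arrays, a difference between the treatments was built into its passing. The adjusted p-values of both genotypes are thus no support for such a difference. With KO_untreated represented by its replicate 1 alone, the only array of that group whose description lacks a suffix, the difference was -5.40 and did not pass (adjusted p = 0.0963). In WT mice Pla2g4c was at least 10.5-fold lower with antibiotics, from measured means of 4.38 ± 0.16 in WT_antibiotic and 8.12 ± 3.23 in WT_untreated (SD, n = 5 each), with groups that overlap. That fitted difference was -3.74 (SE 0.87, adjusted p = 0.0142), and the call was lost without WT_untreated 4 (adjusted p = 0.053), with no filter (adjusted p = 0.0585) and with only the groups compared in the fit (adjusted p = 0.0633). Its SE rests on the spread shared by the 4 groups and is narrower than the SD of 3.23 in WT_untreated would give. No interaction is given for Pla2g4c, since with both antibiotic groups at the background it only restates the difference between untreated KO and WT mice.

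As a description, the Pla2g4c mean of KO_untreated lay 2.52 above that of WT_untreated (SE 0.83 from the shared spread, 5.73-fold), but 0 of 6 KO arrays lay above every WT array. The difference was 1.57 without WT_untreated 2, 3.50 without WT_untreated 3 and 1.66 with KO_untreated 1 as the lone KO array. With antibiotics the probe was detected in neither genotype, so no fold is given.

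Pla2g5, the gene of the secreted group V enzyme, differed with antibiotics past the threshold in KO mice. Its levels were 5.00, 5.05, 4.58, 4.69, 4.89 and 4.55 in KO_antibiotic, against 6.00, 5.66, 5.85, 5.67, 5.38 and 5.19 in KO_untreated, which do not overlap. The means were 4.79 ± 0.22 in KO_antibiotic and 5.62 ± 0.30 in KO_untreated (SD, n = 6 each), a fall of 1.78-fold (log2 -0.83, SE 0.14, adjusted p = 0.000304). All of these levels were low, and on 2 of the 6 KO_antibiotic arrays the probe was not detected.

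In WT mice the Pla2g5 levels were 4.53, 5.06, 4.38, 4.64 and 4.75 in WT_antibiotic, against 4.74, 4.74, 4.79, 4.63 and 4.57 in WT_untreated, all near the background. The difference was -0.02 (SE 0.16, interval -0.34 to 0.30, adjusted p = 0.962). The antibiotic differences of the 2 genotypes differed by -0.81 (SE 0.21), which did not pass over all probes (interaction adjusted p = 0.338). As a description, KO_untreated stood 0.93 above WT_untreated (SE 0.15), with all 6 KO arrays above all 5 WT arrays (4.09% of tested probes were higher with no overlap), and KO_antibiotic stood 0.12 above WT_antibiotic (SE 0.15). The first value was 0.41 with no background correction and with the authors' values, which are nearly the same setting, and 1.31 with KO_untreated 1 as the lone KO array.

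In the reference annotation Pla2g2a lies within the span of Pla2g5, and is listed there as a transcribed pseudogene, as in the reference strain. The probe sequences were not used here, so whether a signal from one gene reached the other's probe was not tested. On WT_untreated 3, where the Pla2g2a level was 13.47, that of Pla2g5 was 4.79. The KO_untreated arrays, with Pla2g2a at 13.10 to 13.70, had Pla2g5 at 5.19 to 6.00.

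Pla2g10, the gene of the secreted group X enzyme, which acts well on phosphatidylcholine and is known from mouse colon epithelium, was detected on every array. Its level ran from 11.28 to 11.89 (median 11.64) in KO_antibiotic and from 11.71 to 12.01 (median 11.82) in KO_untreated. It ran from 11.22 to 11.87 (median 11.60) in WT_antibiotic and from 11.53 to 12.13 (median 11.61) in WT_untreated. All 4 ranges overlap. The antibiotic difference was -0.23 in KO mice (interval -0.51 to 0.05, adjusted p = 0.307) and -0.14 in WT mice (interval -0.45 to 0.17, adjusted p = 0.649). A fall beyond 0.51 on the log2 scale lies outside both intervals. KO means lay 0.12 above WT means without antibiotics and 0.03 above with them, both within 1 SE of 0.14, though the first was 0.44 (SE 0.22) with median scaling.

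Pla2g6, the gene of a calcium-independent enzyme of membrane upkeep, stood near the background throughout. Its level ran from 4.74 to 5.68 (median 4.99) in KO_antibiotic and from 4.57 to 5.36 (median 5.17) in KO_untreated. It ran from 4.75 to 5.22 (median 5.12) in WT_antibiotic and from 4.92 to 5.46 (median 5.13) in WT_untreated, again with overlap throughout. The antibiotic difference was 0.06 in KO mice (interval -0.30 to 0.42, adjusted p = 0.874) and -0.09 in WT mice (interval -0.49 to 0.30, adjusted p = 0.835). The interaction was 0.15 for Pla2g6 (adjusted p = 0.856) and -0.09 for Pla2g10 (adjusted p = 0.892). The undetected probes of Pla2g4a and ILMN_1250497 of Pla2g4c lay between 4.21 and 4.47 on all arrays.

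Among the 5 probes that passed the filter, 3 fell with antibiotics in KO mice, where 7.06% of all 19993 tested probes fell and 12.4% were called in either direction. In WT mice 2 fell, where 2.27% of tested probes fell and 4.75% were called. With groups that do not overlap, 3 probes were lower in KO_antibiotic (3.87% of tested probes) and 1 in WT_antibiotic (2.53%). For the interaction 0 passed with limma (2 at an unadjusted p under 0.05, Pla2g5 and Pla2g4c), against 0.01% of tested probes. Of these, the Pla2g4c value only restates the difference between untreated KO and WT mice and is not read here. The median difference of the 5 probes was -0.83 in KO and -0.14 in WT mice, against 0.01 and 0.03 over all tested probes. Since 1 of the 5 passed the filter only through its untreated arrays, these counts and medians describe the probes and support nothing further. The 2 antibiotic comparisons use different arrays.

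**Figure D2:**
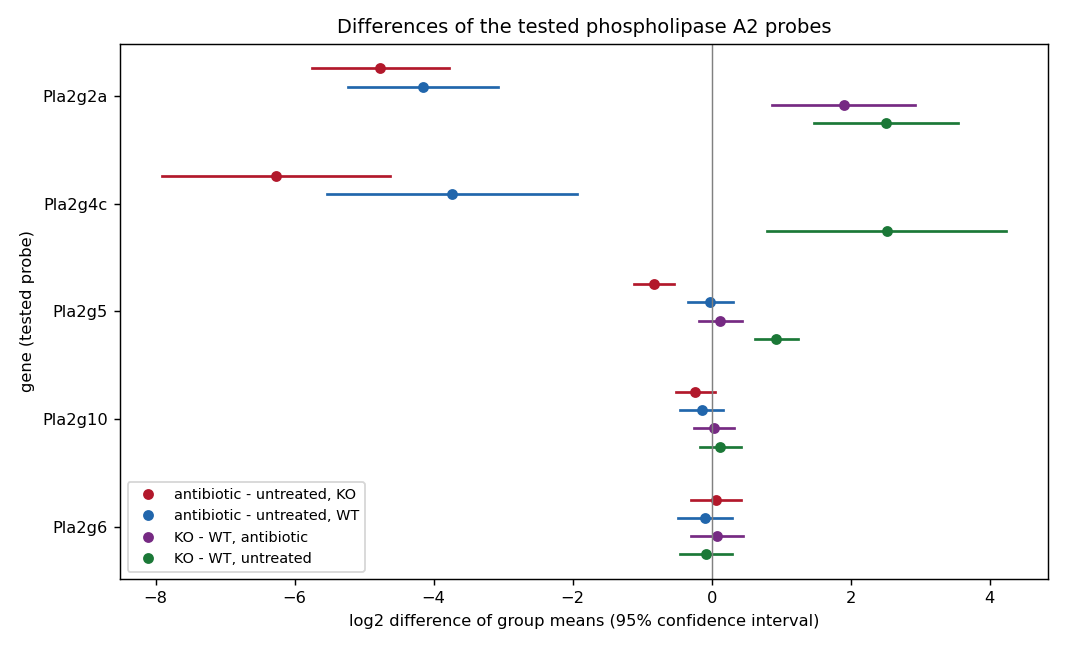
Log2 differences of group means with 95% confidence intervals (horizontal axis) for the tested probe of 5 genes (vertical axis) in the antibiotic and genotype comparisons. Pla2g2a and Pla2g4c lie far to the left in both antibiotic comparisons, at -4.77 and -4.16 and at -6.26 and -3.74, while Pla2g10 and Pla2g6 lie near 0, and no value is drawn for Pla2g4c between KO_antibiotic and WT_antibiotic, where it was not detected.

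Pla2g2a and Pla2g4c were both high without antibiotics, and varied together among the WT_untreated arrays. Over the 22 arrays, which fall into high and low groups by treatment, Pearson's r of their log2 levels was 0.93, placing Pla2g4c 24 among 10705 other genes by likeness to Pla2g2a. After each group's mean was subtracted, so that treatment and genotype no longer contribute, r was 0.84, placing it 4. Of the squared deviations of Pla2g4c, 94.9% lay in the 5 WT_untreated arrays, and without them r was 0.09 over 17 arrays, of which 11 did not detect Pla2g4c. Within the 6 KO_untreated arrays r was 0.42. Among the 5 WT_untreated arrays both genes ran in the same order from high to low, replicate 3, then 4, 1, 5 and 2. The r with Pla2g2a was 0.72 for Pla2g5, 0.47 for Pla2g10 and -0.02 for Pla2g6, and 0.20, 0.09 and -0.06 after subtraction of the group means. These correlations are over arrays that share groups and normalisation, and are given without a test.

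**Figure D3:**
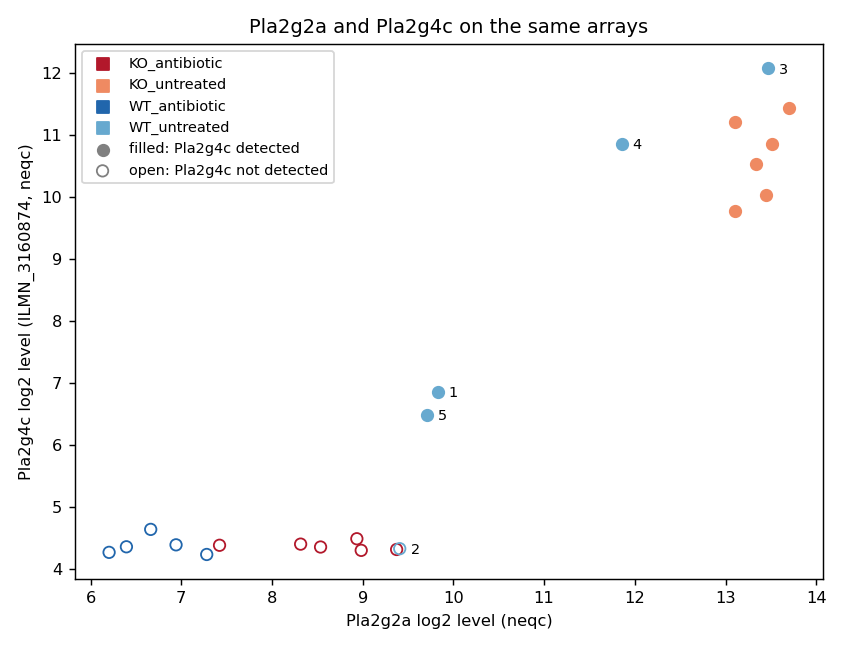
Log2 level of Pla2g2a (horizontal axis) against that of Pla2g4c probe ILMN_3160874 (vertical axis) on each of the 22 arrays, coloured by group and open where Pla2g4c was not detected, with the WT_untreated replicates numbered. The numbered arrays run from replicate 2, undetected for Pla2g4c at 4.33, up to replicate 3, at 13.47 for Pla2g2a and 12.07 for Pla2g4c, above every KO_untreated array for Pla2g4c.

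The 5 genes with the highest r with Pla2g2a in log2 level over the 22 arrays were D17H6S56E-5 (0.97), Fkbp11, which encodes a prolyl isomerase of the secretory pathway (0.96), Duoxa2, whose product brings a dual oxidase to the cell surface (0.96), the goblet cell gene Spink4 (0.95) and the mitochondrial folate enzyme gene Mthfd2 (0.95). By deviation from the group mean they were Fam221a (0.93), Ido1 of tryptophan breakdown (0.85), the lipoprotein receptor gene Lrp8 (0.84), Pla2g4c (0.84) and Duoxa2 (0.84). Duoxa2 thus stood in both lists. The Pla2g2a SD was 1.75 in WT_untreated and 0.24 to 0.68 in the other groups, so the second list reflects mainly the spread of the 5 WT_untreated arrays. For its genes other than Pla2g4c, r without those arrays was not computed. Fam221a, the closest by deviation, differed with antibiotics by -1.89 in KO and -1.14 in WT mice, much less than Pla2g2a. Ido1 differed by -0.91 in KO and -1.99 in WT mice and by 0.01 between KO_untreated and WT_untreated, where Pla2g2a differed by 2.51.

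In the reference gene order Pla2g2a stands in a cluster of secreted phospholipase genes, with Pla2g2c, Pla2g2f, Pla2g2d and Pla2g5 on one side and Pla2g2e on the other. Pla2g2f fell with antibiotics in KO mice by 0.78 on the log2 scale (SE 0.18, adjusted p = 0.00483) and differed by -0.08 in WT mice (adjusted p = 0.867), and the interaction of -0.70 did not pass (adjusted p = 0.515). It was detected on 1 of 6 KO_antibiotic, 5 of 6 KO_untreated, 0 of 5 WT_antibiotic and 2 of 5 WT_untreated arrays, so it passed the filter only through KO_untreated, where it was high, and its differences from that group were built into its passing. Pla2g2c and Pla2g2e did not pass, at -0.09 and 0.34 in KO and -0.02 and -0.21 in WT mice (lowest adjusted p 0.352), and Pla2g2d was detected on 0 arrays. Pla2g2c was detected on 0 of 6 KO_antibiotic, 0 of 6 KO_untreated, 2 of 5 WT_antibiotic and 4 of 5 WT_untreated arrays. For Pla2g2e these counts were 2, 0, 1 and 2. With neither gene detected in KO_untreated, a fall from that group could not have been seen. Past the cluster, Otud3 differed by -0.34 in KO and 0.20 in WT mice (adjusted p = 0.227 and 0.585). Further out, Nbl1 rose by 2.15 in KO and 1.78 in WT mice (limma adjusted p = 1.45e-05 and 0.00145). The other tested neighbours, Camk2n1, Rnf186, Tmco4 and Micos10, were not called in either genotype. Among the tested genes of the cluster the large fall with antibiotics was thus measured at Pla2g2a, with smaller falls at Pla2g5 and Pla2g2f in KO mice. Pla2g2c and Pla2g2e were too near the background in KO mice to show a fall.

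Some markers of other secretory and mucosal cells fell with antibiotics as Pla2g2a did, while others were not called or rose. Of 9 Paneth cell markers 6 were tested, and their mean level per array ran from 5.11 to 7.23 in KO_antibiotic, 8.16 to 9.13 in KO_untreated, 4.87 to 6.17 in WT_antibiotic and 5.57 to 7.98 in WT_untreated. In KO mice 3 of the 6 were called lower with antibiotics, Defa3, Defa20 and Ang4, and in WT mice 1 of the 6, Ang4 (log2 -3.82 in KO and -4.33 in WT mice). Of all tested probes 7.06% fell in KO and 2.27% in WT mice. Itln1 differed by -2.65 in KO and -3.17 in WT mice and was not called (limma adjusted p = 0.0566 and 0.0653). Defa3 was at least 6.98-fold and Defa20 at least 3.74-fold lower in KO_antibiotic, where neither was detected, than in KO_untreated, where both were detected on 6 of 6 arrays. Outside KO_untreated Defa3 was detected on 2 arrays and Defa20 on 0, so both passed the filter only through that group. Lyz1, the lysozyme gene of Paneth cells, was detected on all 22 arrays and differed by 0.16 in KO and 0.21 in WT mice (adjusted p = 0.854 and 0.842), and Mmp7, the defensin-processing protease, was detected on 6 arrays. Of 7 tested goblet cell markers 3 fell in each genotype, Spink4, Agr2 and Spdef, beside the same shares of all tested probes. Tff3, the trefoil peptide gene, rose in KO mice by 0.52 (adjusted p = 0.0451), and Muc2, Zg16 and Clca1 were not called in either genotype.

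In KO mice 5 of 6 mast cell markers and 2 of 5 tuft cell markers also fell with antibiotics. In WT mice 0 of either did. Of all tested probes 7.06% fell in KO and 2.27% in WT mice. Mcpt4 was detected on 5 KO_untreated and 2 WT_untreated arrays only. Cma2 was detected on 6 KO_untreated, 1 KO_antibiotic, 1 WT_antibiotic and 2 WT_untreated arrays. Both passed the filter only through KO_untreated, where they were high, so their differences from that group were built into their passing. Mast cell markers averaged 5.01 to 5.96 per array in KO_antibiotic, 6.45 to 8.53 in KO_untreated, 5.22 to 5.73 in WT_antibiotic and 5.38 to 6.66 in WT_untreated. Of 4 tested exocrine pancreas markers, Pnliprp2 and Clps fell and Cela1 rose in KO mice, and Pnliprp2 fell and Cela1 rose in WT mice. What part these cell types have in the differences of Pla2g2a and Pla2g4c was not tested. Of 8 tested leukocyte markers 0 were called in any comparison, and with their mean as a covariate the antibiotic difference of Pla2g2a was -4.60 in KO and -4.32 in WT mice.

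Genes of the wider pathway were read from 4 lists, of other phospholipases A2 and relatives, eicosanoid enzymes, eicosanoid receptors and transport, and lysophospholipid remodelling. Of their 79 genes, 74 had a named probe and 47 passed the filter, each represented by its brightest tested probe. With antibiotics 12 of the 47 changed in KO mice, 4 higher and 8 lower, beside 5.33% and 7.06% of all tested probes. In WT mice 5 changed, 2 higher and 3 lower, beside 2.49% and 2.27%. The median difference of the 47 genes was 0.04 in KO and 0.04 in WT mice, against 0.01 and 0.03 over all tested probes, so the medians of the lists lay close to those of all probes. With median scaling the WT count was 1, and 377 of 1283 calls over all probes were higher in KO and 76 of 237 in WT mice, against 1066 of 2478 and 497 of 950. With KO_untreated 1, the array without a suffix, as the lone KO_untreated array the KO count was 3.

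Among 18 tested phospholipases and relatives 4 fell in KO mice, Pla2g2f among them, and 2 in WT mice. Pla2g3, the gene of the secreted group III enzyme, fell in both genotypes. Its mean was 6.94 ± 0.34 in KO_antibiotic and 8.30 ± 0.32 in KO_untreated (SD, n = 6 each), a difference of -1.36 (SE 0.17, adjusted p = 1.1e-05). It was 6.75 ± 0.27 in WT_antibiotic and 8.13 ± 0.26 in WT_untreated (SD, n = 5 each), a difference of -1.38 (SE 0.19, adjusted p = 0.000155). Neither pair of groups overlaps, and the interaction was 0.03 (SE 0.26, adjusted p = 0.975). Unlike Pla2g2a, Pla2g3 differed little between the genotypes, by 0.17 without antibiotics (adjusted p = 0.561) and 0.19 with them (adjusted p close to 1), though the contrast between the 2 genes was not tested.

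In KO mice Pla2g12a, of the secreted group XIIA enzyme, fell by 0.76 (SE 0.21, adjusted p = 0.0193), a call lost without KO_untreated 1 (adjusted p = 0.0508) or KO_antibiotic 6 (adjusted p = 0.0524), and stood at -0.73 in WT mice (adjusted p = 0.073). Pnpla7, a lysophospholipase gene, fell by 0.44 (adjusted p = 0.049), a call lost without any single one of 9 of the 12 KO arrays (all but KO_untreated 2 and 6 and KO_antibiotic 3, highest adjusted p 0.12). Plaat3, which encodes a phospholipase and acyltransferase of adipose tissue, fell in WT mice by 0.63 (adjusted p = 0.0398). That call was lost without any single one of 7 of the 10 WT arrays (all but WT_untreated 5 and WT_antibiotic 3 and 5, highest adjusted p 0.119). The wider family thus held 1 further gene, Pla2g3, with a call in both genotypes that no left-out array ended.

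Among 13 tested eicosanoid enzymes, 2 genes of breakdown rose and 1 gene of synthesis fell with antibiotics in KO mice, and 1 rose in WT mice. Ephx2, whose product hydrolyses fatty acid epoxides, was 1.58 higher in KO mice (SE 0.24, adjusted p = 8.9e-05) and 1.17 higher in WT mice (SE 0.27, adjusted p = 0.0119). Hpgd, which encodes the enzyme that inactivates prostaglandins, had a mean of 10.59 ± 0.69 in KO_antibiotic and 9.05 ± 0.38 in KO_untreated (SD, n = 6 each), a rise of 1.54 (SE 0.27, adjusted p = 0.000466). In WT mice the Hpgd difference was 0.51 (adjusted p = 0.368), and the interaction of 1.03 did not pass (adjusted p = 0.516). Alox5, the gene of the leukotriene-forming lipoxygenase, fell in KO mice by 0.73 (adjusted p = 0.0234), a call lost without KO_untreated 6 (adjusted p = 0.068), KO_antibiotic 4 (adjusted p = 0.0573) or KO_antibiotic 6 (adjusted p = 0.064).

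Among 5 tested receptors and transporters, 2 rose and 1 fell in KO mice and 1 rose in WT mice. Ptger3, the gene of a prostaglandin E receptor, rose in both genotypes, by 0.90 in KO (SE 0.14, adjusted p = 0.000138) and 0.78 in WT mice (SE 0.16, adjusted p = 0.00521). Slco2a1, of the transporter that takes up prostaglandins, rose in KO mice by 0.75 (SE 0.20, adjusted p = 0.0127), and Abcc4, of an exporter that carries prostaglandins among other substrates, fell by 0.76 (SE 0.21, adjusted p = 0.0156). In WT mice Slco2a1 stood at 0.56 (adjusted p = 0.144) and Abcc4 at -0.20 (adjusted p = 0.678). With median scaling the calls of Slco2a1 (adjusted p = 0.105) and Abcc4 (adjusted p = 0.0934) in KO mice and of Ephx2 (adjusted p = 0.0523) and Ptger3 (adjusted p = 0.124) in WT mice were lost.

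Among 11 tested genes that handle lysophospholipids, 2 fell in KO and 1 in WT mice. The acyltransferase gene Lpcat4, which rebuilds phospholipids, fell in KO mice by 0.81 (SE 0.15, adjusted p = 0.000858) and in WT mice by 0.58 (SE 0.17, adjusted p = 0.0477). The WT call was lost without any single WT array other than WT_untreated 5 (highest adjusted p 0.134). Lpcat2, an acyltransferase gene of platelet-activating factor synthesis, fell in KO mice by 0.47 (adjusted p = 0.0472), a call lost without any single one of 9 of the 12 KO arrays (all but KO_untreated 2 and 3 and KO_antibiotic 2, highest adjusted p 0.123). For the interaction 0 of the 47 genes passed with limma (2 at an unadjusted p under 0.05, Pla2g2f, which passed the filter only through KO_untreated, and Hpgd). The next by p in their lists were Pnpla8 at 0.86 (adjusted p = 0.57), Alox5ap at -0.70 (adjusted p = 0.572), Abcc4 at -0.56 and Slco2a1 at 0.19 (adjusted p = 0.598 and 0.846), and Acsl3 at 0.83 and Lpcat3 at 0.33 (adjusted p = 0.592 and 0.624).

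**Figure D4:**
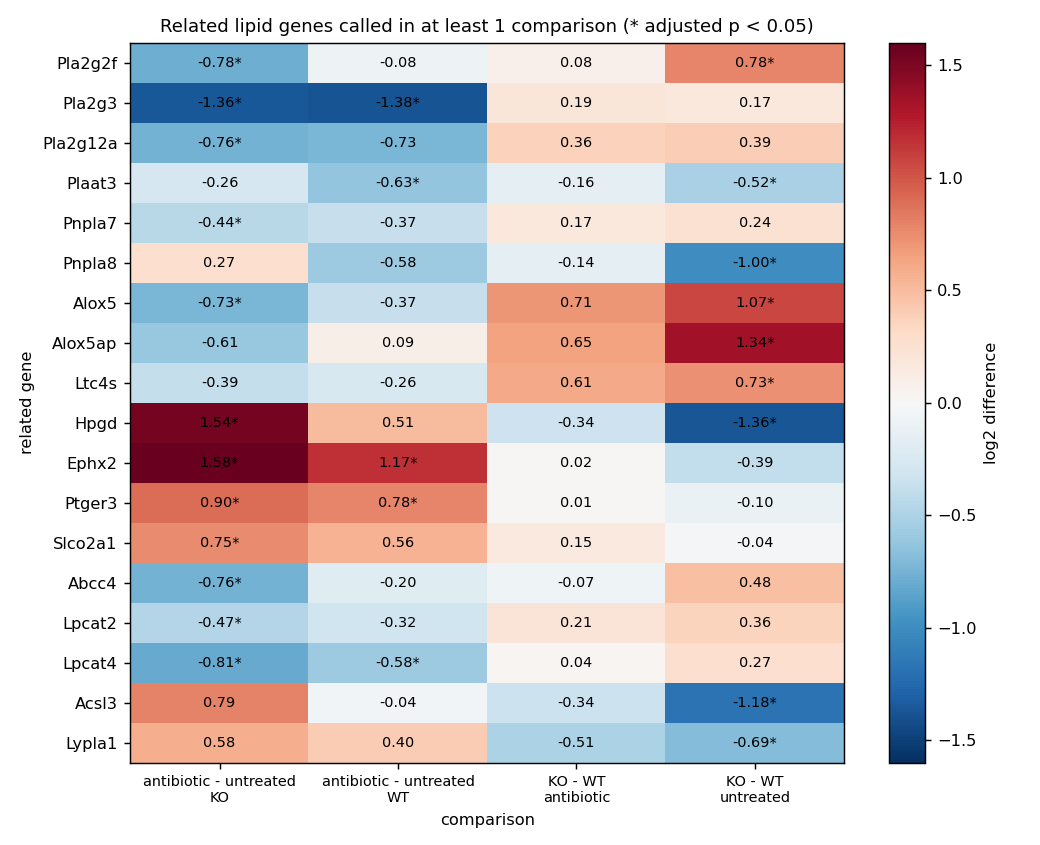
Log2 differences (colour and printed value) of the 18 related genes called in at least 1 comparison (rows) in the antibiotic and genotype comparisons (columns), with an asterisk where the adjusted p was under 0.05. Pla2g3 stands at -1.36 and -1.38 and Ephx2 at 1.58 and 1.17 in the antibiotic columns, the leukotriene genes Alox5, Alox5ap and Ltc4s are called in untreated KO against WT mice, and 0 genes are called in the antibiotic-treated KO against WT mice.

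Between untreated KO and WT mice, 9 of the 47 related genes were called, 4 higher and 5 lower, beside 5.55% and 5.35% of all tested probes, and 2 with median scaling, where 240 of 319 calls over all probes were higher, against 1110 of 2180. The 3 tested genes of leukotriene synthesis were higher in KO_untreated with no overlap between the groups, as were 4.09% of tested probes. In WT_untreated, Alox5 and Ltc4s were each detected on 3 of 5 arrays, with means of 4.83 and 4.82 near the background, and Alox5ap on 5 of 5. For Ltc4s the highest WT_untreated level was 5.18 and the lowest KO_untreated level 5.21. Alox5 averaged 5.91 ± 0.39 in KO_untreated and 4.83 ± 0.34 in WT_untreated (SD, n = 6 and 5), a difference of 1.07 (SE 0.22, adjusted p = 0.00691). Alox5ap, whose product presents arachidonic acid to that enzyme and which also marks tuft cells, was 1.34 higher (adjusted p = 0.0029). Ltc4s, of leukotriene C synthesis, was 0.73 higher (SE 0.19, adjusted p = 0.0216), a call lost without WT_untreated 5 (adjusted p = 0.065) and with median scaling (adjusted p = 0.0609). With KO_untreated 1 as the lone KO array the calls of Alox5 (adjusted p = 0.0975), Alox5ap (adjusted p = 0.0841) and Ltc4s (adjusted p = 0.489) were all lost. In these arrays 4 of 5 tuft cell markers, Alox5ap among them, and 4 of 6 mast cell markers were higher in KO_untreated than in WT_untreated. Of these mast cell markers, Mcpt4 and Cma2 passed the filter only through KO_untreated. The part of tuft and mast cells in these differences was not tested.

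Pla2g2f, which passed the filter only through KO_untreated, was 0.78 higher in KO_untreated (SE 0.19, adjusted p = 0.0145), a call lost with median scaling (adjusted p = 0.0581). Lower in KO_untreated was Hpgd, with a mean of 9.05 ± 0.38 against 10.42 ± 0.22 in WT_untreated (SD, n = 6 and 5) and a difference of -1.36 (SE 0.29, adjusted p = 0.00741). Pnpla8, of a mitochondrial phospholipase, differed by -0.997 (adjusted p = 0.0349) and Acsl3, of a fatty acid activating enzyme, by -1.18 (adjusted p = 0.0212). Lypla1, of a thioesterase that also cuts lysophospholipids, differed by -0.69 (adjusted p = 0.0401) and Plaat3 by -0.52 (adjusted p = 0.0477). Of these 5 falls that of Hpgd kept its call without each single array, but all 5 were lost with median scaling, where Hpgd stood at -1.15 (adjusted p = 0.0762). Acsl3 was lost without WT_untreated 5 or KO_untreated 1 (adjusted p = 0.0548 and 0.0564). Pnpla8 was lost without any single one of 7 of the 11 arrays (all but WT_untreated 1 and KO_untreated 2, 4 and 6, highest adjusted p 0.094), Lypla1 without any one of 8 (all but KO_untreated 2, 4 and 6, highest adjusted p 0.103) and Plaat3 without any one of 8 (all but WT_untreated 5 and KO_untreated 5 and 6, highest adjusted p 0.121). With KO_untreated 1 as the lone KO array the count was 1, and Hpgd stood at -1.93 (adjusted p = 0.0627).

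Among the receptors and transporters 0 were called between untreated KO and WT mice with limma (1 at an unadjusted p under 0.05), with Abcc4 at 0.48 (adjusted p = 0.138) and Ptger3 at -0.10 (adjusted p = 0.672) next by p. Between KO_antibiotic and WT_antibiotic 0 of the 47 genes were called (5 at an unadjusted p under 0.05), beside 0.03% of tested probes. The 2 genes with the smallest p in each list there were Alox5 at 0.71 and Ltc4s at 0.61, Lypla1 at -0.51 and Lpcat3 at 0.31, Pla2g4f at -0.48 and Pla2g2c at -0.23, and Slco2a1 at 0.15 and Ltb4r1 at 0.09, none past the threshold (adjusted p close to 1 for each). The antibiotic comparison in KO mice and the comparison of untreated KO with WT mice share the KO_untreated arrays, so Hpgd, Alox5 and Pla2g2f, called in both, are not separate observations in each. The same holds for the values of Pla2g2a, Pla2g4c and Pla2g5 in these comparisons.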

How the data were processed

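The deposited scanner table gives, per the file headers, a mean bead signal for each probe and array, an intensity on a linear scale, and a detection p-value. The authors' processed intensity table, whose columns hold the same sorted values, served as an alternative. Labelling was biotinylated cRNA, per the labels' protocols, and the sources used here do not give the scanner software. Background correction, quantile normalisation and log2 transformation used neqc (offset 16) in limma 3.58.1 under R 4.3.3. A linear model with 1 mean for each group was fitted over all 22 arrays (lmFit and eBayes, tested on simulated data) to the 19993 probes detected, at a detection p-value under 0.05, on 5 or more arrays. Contrasts were antibiotic against untreated in each genotype, their difference (interaction) and KO against WT under each treatment. Tests are two-sided, adjusted p-values are Benjamini-Hochberg over all tested probes, and a gene changed where the adjusted p was under 0.05. The p-values reflect only the variation among these arrays, whose number limits the precision.

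Of the probes, 34885 had 1 symbol in the platform annotation, 18 several and 10378 none, and symbols were updated through gene identifiers to RefSeq names of GRCm38.p6. The files name no build. Each gene is given by the brightest of its tested probes. Where no array of a group detected a probe, only a bound is known, and the fold is written as at least the value against the lowest detected signal of each array. The members and lists were chosen with earlier results of these data known. Named genes are every member, every called gene of a list or otherwise the 2 with the smallest p per comparison, and the 5 most correlated with Pla2g2a by level and by deviation from group means. Alternatives were no background correction, median scaling, the authors' values, no filter, a detection p-value under 0.01 (16644 probes), weights for arrays, a block for the replicate number, a leukocyte covariate, only the groups compared and each array left out. No background correction and the authors' values called 2148 and 2149 probes between untreated KO and WT mice, so they are close to 1 setting and not separate checks. KO_untreated represented by its array without a suffix was chosen after seeing the data.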

Additional observations from a re-analysis of the deposited data

Results flagged for a closer look

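In 4 of 92 groups checked, over 23 probes, 1 array stood apart from the rest of its group by Dixon's test, and chance flags about 1 in 20. All 4 lay in WT_antibiotic. Pla2g6 was at 4.75 on WT_antibiotic 2, against 5.10 to 5.22 on the other 4 arrays, and Pnpla8 at 7.08 on the same array, against 8.04 to 8.25. Slco2a1 was at 8.02 on WT_antibiotic 3, against 8.60 to 8.77. Lpcat2 was at 4.85 on WT_antibiotic 1, against 5.28 to 5.45. On WT_antibiotic 2, 16100 probes were detected, the fewest of that group.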

How the results depend on the processing

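The falls of Pla2g2a with antibiotics kept direction and call under every alternative run, at -4.87 to -4.51 in KO mice (10 alternatives) and -4.32 to -3.63 in WT mice (9), and at -4.94 to -4.54 and -4.52 to -3.51 with each array left out. Among member probes in WT mice 1 was called in place of 2 with no filter, with only the groups compared and without WT_untreated 4 (range 1 to 2 with arrays left out). Among related genes in WT mice the count of 5 was 3 with no background correction, with the authors' values and with no filter, 1 with median scaling, 8 with array weights and 3 to 6 with arrays left out, being 3 without WT_untreated 1, 2, 3 or 4 or WT_antibiotic 1 or 4. Between untreated KO and WT mice the count of 9 was 2 with median scaling, 4 with no filter, 1 with the KO array without a suffix alone and 5 to 9 with arrays left out, being 5 without WT_untreated 5 or KO_untreated 1. In KO mice the count of 12 was 3 with that array alone, which is assumed to vary like the other groups. Uncalled values changed sign for Pla2g6 in KO mice (-0.000917 with median scaling, -0.21 with that array, -0.0458 to 0.144 with arrays left out), its interaction (-0.12 with that array) and Pla2g5 in WT mice (0.00296 with the leukocyte covariate, -0.118 to 0.0544 with arrays left out). The cause of these changes was not tested. Leaving out an array could also strengthen a call, as for Pla2g4c in WT mice (lowest limma adjusted p 0.000625, against 0.0142). Same-numbered arrays did not pair: 12 of 31 pairs had a correlation of deviations from group means over 0.1 (range -0.38 to 0.53), and 4 of 22 arrays correlated best with their own number. With the replicate block Pla2g2a stood at -4.77 in KO (adjusted p = 7.99e-06) and -4.16 in WT mice (adjusted p = 0.000302), the counts were 3 and 2 members and 13 and 4 related genes, and the calls over all probes were 2458 against 2478 and 988 against 950, but 3358 against 2180 between untreated KO and WT mice. Median scaling cut the calls over all probes to 1283 of 2478 in KO and 237 of 950 in WT mice, with 377 and 76 of them higher against 1066 and 497, and to 319 of 2180 between untreated KO and WT mice, with 240 higher against 1110. The mean of several Pla2g2a probes was not run, since the gene has 1 probe. Levels near the background, as for Pla2g5, Pla2g6 and Pla2g2f, understate differences.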
